A study of Mus musculus with 12 samples.

Results

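The question is whether gastrodin at 50 mg/kg/day changed gene expression differently in hearts of angiotensin II-treated mice and in hearts of sham-operated mice. For each gene the quantity described is a difference of differences, the log2 ratio of gastrodin to vehicle in the angiotensin II arm minus the same ratio in the sham arm, called the interaction here. It was computed from the raw counts of 8 of the 12 libraries of the series, 2 in each of 4 groups. The groups were AngII-50mg (libraries 5 and 6), AngII-0mg (1 and 2), Sham-50mg (11 and 12) and Sham-0mg (7 and 8), where 0 mg is the vehicle. All mice were wild-type C57BL/6 at postnatal day 45, the tissue was heart, and gastrodin or vehicle was given by the gastric route for 7 days. The AngII arm is the study's model of cardiac hypertrophy. Whether the libraries of a group are separate animals is not stated in the labels. All p-values here therefore rest on the spread among libraries, which may be technical. That spread was estimated over all 12 libraries, both 5 mg groups included. Over 7428 more abundant genes, the median absolute log2 difference between the libraries of a group was 0.62 in AngII-5mg. It was 0.291 to 0.358 in the other groups.

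Angiotensin II is a peptide hormone that constricts vessels and, through its type 1 receptor, promotes growth of heart muscle cells and deposition of collagen by cardiac fibroblasts. Gastrodin is a glucose-linked phenol found in Gastrodia elata, an orchid used in traditional medicine. The title of the study names the insulin-like growth factor IGF2, a fetal growth factor encoded by an imprinted gene, and its receptor IGF2R, which binds IGF2 and carries it to lysosomes for degradation. A gene with a negative interaction is one that gastrodin lowered more, or raised less, in AngII hearts than in sham hearts; a positive interaction is the opposite.

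Of 27504 genes, 16723 had enough counts to be tested. Heart muscle genes were abundant in all 8 libraries, with Tnnt2, cardiac troponin T, at 723 to 1309 CPM (counts per 1000000 counts of the TMM-scaled library). Total counts were 72269590 to 78604709 per library, but mitochondrial transcripts took most of them, and nuclear genes other than ribosomal RNA and mitochondrial copies held 9.66 and 18.7% in AngII-50mg, 14.0 and 9.47% in AngII-0mg, 7.00 and 9.10% in Sham-50mg and 7.56 and 10.4% in Sham-0mg. Ribosomal RNA took 11.1% of Sham-50mg library 12 and under 1% elsewhere. The part of these shares in the results was not tested. Summed CPM of 22 liver marker genes differed within the AngII groups and between the sham groups, at 101 and 38.7 in AngII-50mg, 4.40 and 56.5 in AngII-0mg, 61.8 and 66.6 in Sham-50mg and 3.82 and 4.79 in Sham-0mg, and their part was likewise not tested. All 22 had a negative interaction, 10 at an unadjusted p under 0.05 (against 3.47% of all genes tested), and 0 passed. Their fitted median of -6.50 is no bound, since many of them had few or no counts in some libraries, and it was -0.13 without AngII-0mg 2 and -0.40 on log2(TPM + 1). Albumin, Alb, had 42.5 and 13.3 CPM in AngII-50mg, 0.176 and 18.5 CPM in AngII-0mg, 15.2 and 18.8 CPM in Sham-50mg and 0.926 and 0.09999 CPM in Sham-0mg.

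The interaction at 50 mg passed in 5 genes (edgeR's quasi-likelihood test, Benjamini-Hochberg adjusted p under 0.05 over all genes), which is 0.0299% of those tested. Errfi1, Igf2, Rpl21 and Gm10036 had negative interactions (0.0239%) and Gm49394 a positive one (0.00598%). The gastrodin effect within AngII hearts passed in 2 genes (0.012%), Gm49394 higher and Klhdc10 lower (0.00598% each). That within sham hearts passed in 25 genes (0.149%), 14 higher (0.0837%) and 11 lower (0.0658%). Among them were Rpl21 and the ribosomal protein pseudogenes Rpsa-ps10, Gm10036 and Rps26-ps1, all higher, and Rpl3-ps2, lower. Whether reads shared with similar genes had a part in these sham calls was not tested. The interaction at 5 mg passed in 1 gene (0.00598%). The number of calls moved with single libraries. It was 2 without Sham-0mg 7, 8 without AngII-0mg 2 or Sham-50mg 11, 16 without AngII-50mg 5 or AngII-5mg 3, and 23 without AngII-5mg 4.

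Errfi1 encodes a feedback inhibitor of the EGF receptor family that is made in response to growth factors and stress. Its level was 3.26 and 3.96 CPM in AngII-50mg, against 10.9 and 7.25 CPM in AngII-0mg. It was 14.1 and 10.3 CPM in Sham-50mg, against 1.77 and 2.15 CPM in Sham-0mg. In each arm the libraries of the 50 mg group and of the vehicle group did not overlap, and the order was opposite, lower with gastrodin in AngII hearts and higher with gastrodin in sham hearts. The interaction was -3.96 ± 0.45 (log2, SE; edgeR adjusted p = 0.00466). Its parts were a gastrodin effect of -1.33 ± 0.31 in AngII hearts (edgeR adjusted p = 1.00) and of 2.63 ± 0.33 in sham hearts (edgeR adjusted p = 0.00654). At 5 mg the sham libraries lay between those at 0 and 50 mg, while the AngII libraries lay within the range of their vehicle group. By rising dose, AngII hearts had 10.9 and 7.25 CPM at 0 mg, 7.37 and 8.57 CPM at 5 mg and 3.26 and 3.96 CPM at 50 mg. Sham hearts had 1.77 and 2.15 CPM at 0 mg, 4.92 and 5.50 CPM at 5 mg and 14.1 and 10.3 CPM at 50 mg. The interaction at 5 mg, which shares the 4 vehicle libraries, was -1.60 ± 0.44 and did not pass (edgeR adjusted p = 1.00).

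Errfi1 lies on chromosome 4 at 150853919 to 150868892 of GRCm38, on the plus strand, shares no exon bases with another gene and has no near-identical copy, so its reads can be assigned. The call stood in 11 of the 12 leave-one-out fits. It ended without Sham-0mg 7 (adjusted p = 0.0648) and on the authors' TPM values, where the interaction was -2.29. One of its promoters is shown because Errfi1 is the only called gene whose counts do not depend on how reads were divided among overlapping or copied genes. The 300 bases are from RefSeq on GRCm38.p6, chr4:150854820-150855119, plus strand, and capitals mark a match to the cAMP response element TGACGTCA.

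Errfi1 promoter: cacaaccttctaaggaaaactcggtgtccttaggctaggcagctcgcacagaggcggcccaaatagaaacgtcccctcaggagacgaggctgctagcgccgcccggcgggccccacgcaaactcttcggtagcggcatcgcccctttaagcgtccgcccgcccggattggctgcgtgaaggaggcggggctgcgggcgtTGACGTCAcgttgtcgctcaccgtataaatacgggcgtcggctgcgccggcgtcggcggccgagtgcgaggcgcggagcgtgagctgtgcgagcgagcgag

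Both strands were searched for 3 motifs. They were TGACGTCA, present in 1.79% of 32851 promoters of this length, the AP-1 site TGANTCA, in 7.81%, and the glucocorticoid response element, GNACA and TGTNC with 3 bases of any kind between them, in 0.475%. A match to TGACGTCA is not also a match to TGANTCA. The Errfi1 promoter shown held the first and neither of the others. The other listed Errfi1 promoter, both of Cdkn1a and that of Ddit4 held none of the 3. A match is a description of these letters and shows no binding.

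Igf2 had the largest negative interaction among called genes. Its level was 0.530 and 0.0318 CPM in AngII-50mg, against 3.23 and 4.505 CPM in AngII-0mg. It was 8.66 and 12.03 CPM in Sham-50mg, against 0.347 and 0.462 CPM in Sham-0mg. The interaction was -8.55 ± 1.14 (log2, SE; edgeR adjusted p = 0.0186), made of -3.89 ± 0.80 in AngII hearts (edgeR adjusted p = 1.00) and 4.66 ± 0.81 in sham hearts (edgeR adjusted p = 0.0491). Libraries of the 50 mg and vehicle groups did not overlap in either arm. Read by itself, Igf2 was thus low in treated AngII hearts and in untreated sham hearts, and high in the other groups.

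Gm49394 showed the mirror image. It had 166 and 290 counts in AngII-50mg, against 0 and 0 in AngII-0mg. It had 0 and 0 counts in Sham-50mg, against 183 and 375 in Sham-0mg, and 0 in all 4 libraries at 5 mg. Set against 3 counts for the whole zero group, the level was at least 141-fold higher in AngII-50mg than in AngII-0mg. By the same measure it was at least 178-fold higher in Sham-0mg than in Sham-50mg. The interaction passed (edgeR adjusted p = 0.00187), and its fitted size is not a bound because of the zero groups. The 4 libraries with counts for Gm49394 are the 4 with the lowest Igf2 level in the series; the 8 libraries with no count for it had 3.23 to 12.03 CPM of Igf2.

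**Figure D1:**
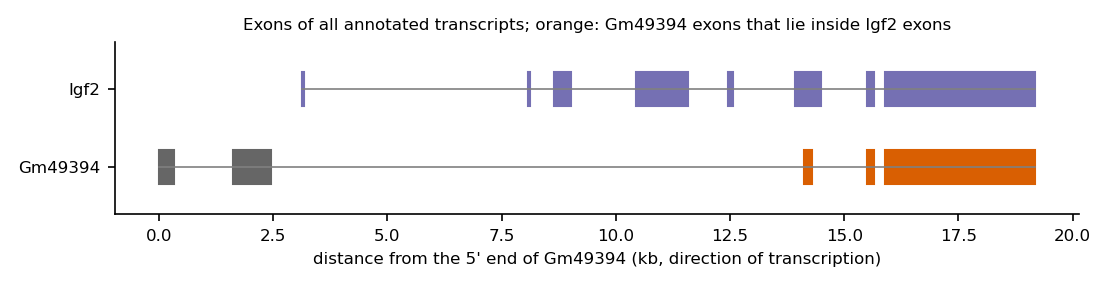
Exons of Igf2 (top) and Gm49394 (bottom) from all annotated transcripts, drawn by distance in kilobases along the direction of transcription. Orange boxes are the 3 of 5 Gm49394 exons that lie inside Igf2 exons, and grey boxes are its other exons.

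The annotation places Gm49394 on the same strand as Igf2, with a start further upstream. Igf2 spans 142650766 to 142666816 on the minus strand of chromosome 7 and Gm49394 spans 142650769 to 142669942 (GENCODE M21, GRCm38). Of the 5 exons of Gm49394, 3 lie inside Igf2 exons, and the shared 3596 bases are 62.8% of the exon bases of Igf2 and 75.9% of those of Gm49394. The exon with the same ends in both genes is shown because reads within it match both equally. It is chr7:142654300-142654448 of GRCm38, minus strand, 149 bases, and none of its letters differ between the genes.

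Exon of Igf2 and Gm49394: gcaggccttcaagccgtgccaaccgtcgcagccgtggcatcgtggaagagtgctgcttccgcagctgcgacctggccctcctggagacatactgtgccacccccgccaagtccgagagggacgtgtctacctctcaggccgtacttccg

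The sources used here do not say how the authors divided such reads. When the counts of both genes were added, the level was 2.91 and 2.34 CPM in AngII-50mg, against 3.23 and 4.51 CPM in AngII-0mg. The sum was 8.66 and 12.03 CPM in Sham-50mg, against 3.88 and 5.15 CPM in Sham-0mg. The interaction of the sum was -1.76 ± 0.54 and did not pass (edgeR adjusted p = 0.520). So the sum had the same direction as Igf2, a size of 1.76 in place of 8.55 on the log2 scale, and no call. The Igf2 call also ended without Sham-0mg 7 (adjusted p = 0.160), without Sham-0mg 8 (0.0960), with the 5 mg libraries left out of the fit (0.0577) and on TPM (0.111). The receptor Igf2r did not pass, with 7.46 and 7.93 CPM in AngII-50mg, 11.9 and 7.86 CPM in AngII-0mg, 4.16 and 5.88 CPM in Sham-50mg and 3.38 and 4.10 CPM in Sham-0mg (interaction -0.79 ± 0.57, edgeR adjusted p = 0.817).

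**Figure D2:**
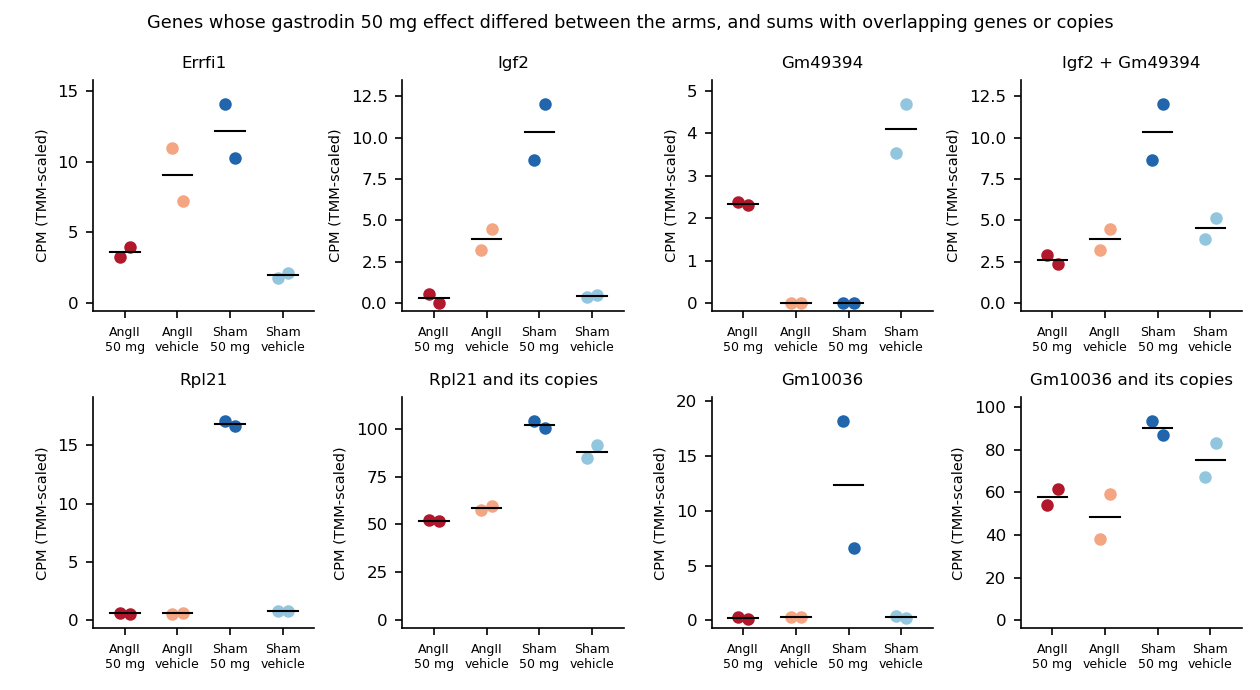
TMM-scaled CPM (linear axis) of the 5 called genes and of 3 sums, by group; points are libraries and lines are means of 2. The sums of Igf2 with Gm49394, and of Rpl21 and Gm10036 with their copies, differ by smaller folds than the single genes and were not called. Copies hold most of the Rpl21 and Gm10036 sums, so those sums do not decide whether the single genes changed. Errfi1 is lower with gastrodin in AngII hearts and higher with it in sham hearts.

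Rpl21, which encodes a protein of the large ribosomal subunit, stood high in Sham-50mg alone among the 4 groups. Its level was 0.630 and 0.564 CPM in AngII-50mg and 0.556 and 0.620 CPM in AngII-0mg. It was 17.1 and 16.6 CPM in Sham-50mg, against 0.810 and 0.762 CPM in Sham-0mg, giving an interaction of -4.40 ± 0.45 (edgeR adjusted p = 0.00187). Gm10036 is a processed pseudogene whose transcript shares most of its sequence with Rpl11, another ribosomal protein gene. It had 0.286 and 0.151 CPM in AngII-50mg and 0.293 and 0.304 CPM in AngII-0mg. It had 18.2 and 6.58 CPM in Sham-50mg, against 0.424 and 0.188 CPM in Sham-0mg (interaction -5.85 ± 0.83, edgeR adjusted p = 0.0293).

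Both genes have near-identical copies elsewhere, among which the counting could split reads. A stretch of Rpl21 (chromosome 5) and the same stretch of its copy Gm10163 (chromosome 9) are shown in transcript sense, from GENCODE M21 transcripts on GRCm38; differing bases would be in capitals, and there are none. Over the whole length of the copy, 479 of 481 bases (99.6%) are identical.

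Rpl21: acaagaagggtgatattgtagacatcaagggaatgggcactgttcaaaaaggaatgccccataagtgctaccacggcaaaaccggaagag
Gm10163: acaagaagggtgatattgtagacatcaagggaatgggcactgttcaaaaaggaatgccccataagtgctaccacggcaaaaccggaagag

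Gm10163 held more counts than Rpl21 itself in every library, at 13.5 and 14.6 CPM in AngII-50mg, 16.04 and 15.8 CPM in AngII-0mg, 21.3 and 19.4 CPM in Sham-50mg and 22.3 and 24.0 CPM in Sham-0mg. Summed over Rpl21 and 19 copies, an alternative added after seeing the data, the level was 52.2 and 51.7 CPM in AngII-50mg and 57.4 and 59.7 CPM in AngII-0mg. The sum was 103.9 and 100.2 CPM in Sham-50mg, against 84.5 and 91.6 CPM in Sham-0mg, and its interaction did not pass (-0.39 ± 0.37, edgeR adjusted p = 0.883). The Rpl21 call also ended on TPM (0.111). Gm10036 summed with 4 copies, Rpl11 among them, had an interaction of -0.01 ± 0.42 (edgeR adjusted p = 1.00). Rpl11 alone held 74.3 and 79.6 CPM of that sum in Sham-50mg, against 66.2 and 82.6 CPM in Sham-0mg. Copies held most of both sums, so a sum without a call does not decide whether Rpl21 or Gm10036 itself changed. The Gm10036 call also ended with limma-voom (0.361) and without AngII-0mg 1, AngII-50mg 6, Sham-0mg 7, Sham-0mg 8 or Sham-50mg 11 (0.0561 to 0.161), and with the 5 mg libraries left out of the fit (0.0645).

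Among the genes next in rank, none passed, and their values are given as such. Tcf4, a basic helix-loop-helix transcription factor, had 5.57 and 3.56 CPM in AngII-50mg and 14.4 and 8.59 CPM in AngII-0mg, and 25.3 and 29.9 CPM in Sham-50mg and 5.57 and 7.51 CPM in Sham-0mg. Its interaction was -3.41 ± 0.54 (edgeR adjusted p = 0.0591). Cdkn1a, the cell cycle inhibitor p21, had 3.01 and 3.75 CPM in AngII-50mg and 4.39 and 5.16 CPM in AngII-0mg, and 12.4 and 14.6 CPM in Sham-50mg and 3.34 and 3.40 CPM in Sham-0mg. Ddit4, a stress-induced inhibitor of mTORC1, had 8.66 and 9.89 CPM in AngII-50mg and 12.03 and 13.7 CPM in AngII-0mg, and 36.6 and 20.5 CPM in Sham-50mg and 4.55 and 6.70 CPM in Sham-0mg. The interaction was -2.50 ± 0.44 for Cdkn1a and -2.81 ± 0.51 for Ddit4 (edgeR adjusted p = 0.129 and 0.144). In these 3 genes both libraries of Sham-50mg stood above all other libraries of the 4 groups. The same held in Errfi1 except for AngII-0mg library 1, which reached 10.9 CPM. Such genes were chosen by the interaction itself, so this order partly describes the choice.

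Rgcc, a regulator of the cell cycle, had a similar layout, with 3.06 and 7.69 CPM in AngII-50mg, 8.06 and 9.11 CPM in AngII-0mg, 31.3 and 31.4 CPM in Sham-50mg and 6.13 and 6.55 CPM in Sham-0mg (interaction -2.98 ± 0.57, edgeR adjusted p = 0.163). The secreted matrix-associated protein gene Ccdc80 (-2.02 ± 0.45) and the transcription factor gene Ebf1 (-2.47 ± 0.59) also had negative interactions that did not pass, as did the small GTPase gene Rhob (-1.68 ± 0.40). Klhdc10, a substrate receptor of a ubiquitin ligase, differed in the other arm. It had 0.973 and 0.913 CPM in AngII-50mg, against 5.45 and 5.52 CPM in AngII-0mg, while sham hearts held 5.00 and 5.22 CPM in Sham-50mg and 6.33 and 6.35 CPM in Sham-0mg. It fell with gastrodin in AngII hearts (-2.54 ± 0.31, edgeR adjusted p = 0.0245), and its interaction did not pass (-2.23 ± 0.41, edgeR adjusted p = 0.144). Creb1, the cAMP-responsive transcription factor, had 0.372 and 0.461 CPM in AngII-50mg, against 3.26 and 3.09 CPM in AngII-0mg, but its sham libraries were spread from 1.29 to 5.95 CPM (interaction -3.56 ± 0.85, edgeR adjusted p = 0.336).

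On the positive side, both Sham-50mg libraries lay below the other 6 libraries of the 4 groups in each of the leading genes named next. These genes too were chosen by the interaction itself, so this order partly describes the choice. The share of all genes with such an order was not computed. Acacb, which makes the malonyl-CoA that limits entry of fatty acids into mitochondria, had 60.6 and 71.4 CPM in AngII-50mg and 61.4 and 44.9 CPM in AngII-0mg. It had 2.70 and 6.65 CPM in Sham-50mg and 33.0 and 22.1 CPM in Sham-0mg (interaction 2.87 ± 0.64, edgeR adjusted p = 0.2705). The inward rectifier potassium channel gene Kcnj14 had 7.09 and 3.18 CPM in AngII-50mg and 5.33 and 6.45 CPM in AngII-0mg. It had 0.533 and 0.224 CPM in Sham-50mg, against 5.59 and 7.499 CPM in Sham-0mg (interaction 3.93 ± 0.78, edgeR adjusted p = 0.193). The R-spondin receptor gene Lgr6 (3.67 ± 0.87), Acad12 of the acyl-CoA dehydrogenase family (2.35 ± 0.48), the phospholipid transporter gene Abcb4 (2.24 ± 0.48), Rrad, an inhibitor of L-type calcium channels (2.03 ± 0.48), and Nnt, which makes mitochondrial NADPH (1.74 ± 0.39), ranked with them. None of these passed (edgeR adjusted p = 0.198 to 0.336). Rgl3 (2.49 ± 0.59), Prepl (2.17 ± 0.50) and Ccdc141 (1.89 ± 0.41) also had positive interactions that did not pass.

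**Figure D3:**
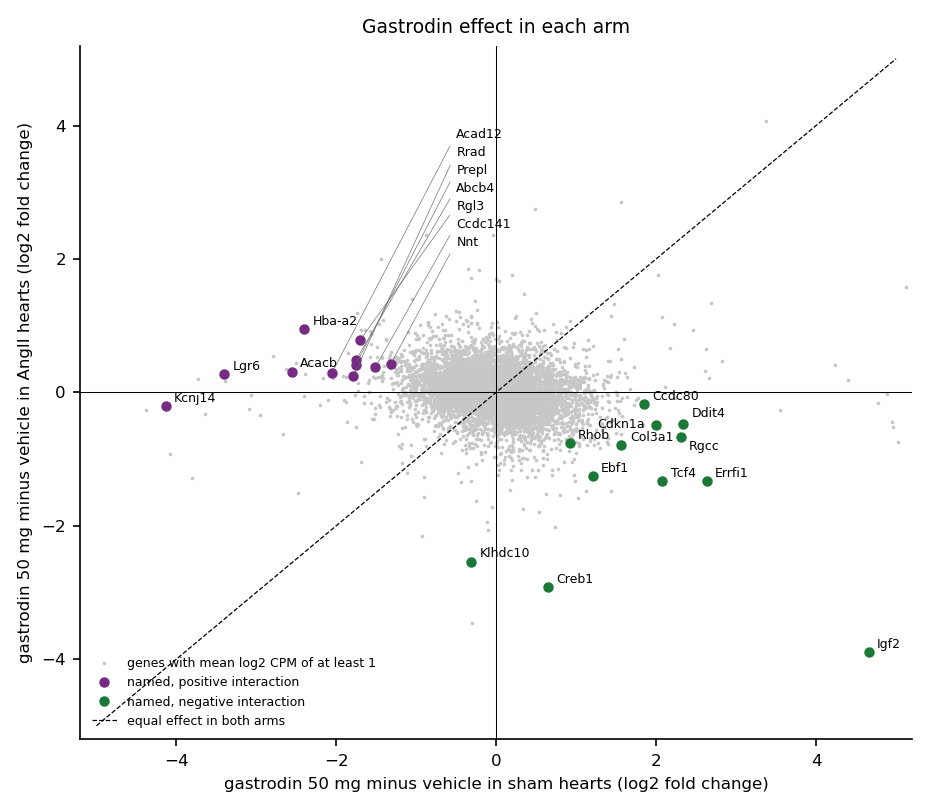
Log2 effect of gastrodin at 50 mg in AngII hearts (vertical) against that in sham hearts (horizontal), 1 point per gene whose mean log2 CPM is 1 or more (a few fall outside the axes). Most of the labelled points lie farther from 0 on the sham axis than on the AngII axis, with Klhdc10, Creb1 and Ebf1 as the exceptions among them.

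At an unadjusted p under 0.05 the interaction counted 1159 genes (6.93%), 578 positive (3.46%) and 581 negative (3.47%). Over all genes tested, the median absolute effect was 0.47 in sham hearts and 0.30 in AngII hearts. At an unadjusted p under 0.05 (edgeR) there were 1542 genes for the sham effect and 315 for the AngII effect. The share of all genes with the larger effect in sham hearts was not computed. The sham effect was the larger of the pair in 476 of the 578 positive genes (82.4%) and in 450 of the 581 negative genes (77.5%). Median effects were 0.45 in AngII hearts and -1.18 in sham hearts for the positive genes, and -0.60 in AngII hearts and 1.41 in sham hearts for the negative genes. These genes were chosen by the difference itself, so opposite signs in 505 and 514 of them describe that choice. Over all genes tested the median interaction was -0.03, and all 16 choices of 1 library per group had 1 sign in 12.7% (positive) and 11.6% (negative) of genes. The shares of 3.46% and 3.47% are the background for the list counts below. Members of a list can vary together over the libraries, so they are not independent results.

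Genes of the extracellular matrix had negative interactions almost throughout. Of 43 tested, 42 had a negative interaction, 24 of them at an unadjusted p under 0.05, against 3.47% of all genes tested, and 0 passed after adjustment; the median was -1.56, against -0.03 over all genes. Their median effect was -0.36 in AngII hearts and 1.24 in sham hearts. In whole heart RNA, more cells of a type and more RNA per cell cannot be told apart. Col3a1, the chain of type III collagen, had 18.3 and 13.6 CPM in AngII-50mg and 24.2 and 31.1 CPM in AngII-0mg. It had 98.5 and 83.7 CPM in Sham-50mg, against 18.5 and 42.9 CPM in Sham-0mg (interaction -2.36 ± 0.57, edgeR adjusted p = 0.336). Fbn1, fibrillin, had 3.46 and 3.88 CPM in AngII-50mg and 5.09 and 5.76 CPM in AngII-0mg, and 14.3 and 16.5 CPM in Sham-50mg and 5.28 and 7.04 CPM in Sham-0mg (-1.88 ± 0.46). Loxl1, a collagen and elastin crosslinking enzyme, and Col15a1 followed (-1.65 ± 0.41 and -2.33 ± 0.58). Postn, a matrix protein of activated fibroblasts, had 1.16 and 0.532 CPM in AngII-50mg and 0.976 and 1.19 CPM in AngII-0mg, and 10.5 and 6.13 CPM in Sham-50mg and 1.35 and 3.10 CPM in Sham-0mg (-2.26 ± 0.68). Col1a1 had an interaction of -1.75 ± 0.64.

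Markers of fibroblasts and macrophages moved with the matrix genes, and their part in the result was not tested. The fibroblast markers include matrix genes themselves, Col1a1 among them, so their sum is not a separate reading. Summed CPM of 13 fibroblast markers were 240 and 304 in AngII-50mg, 208 and 257 in AngII-0mg, 678 and 696 in Sham-50mg and 209 and 388 in Sham-0mg. Their defining marker Pdgfra was above 0 in all 8 libraries. Of the 13, all had a negative interaction, 3 at an unadjusted p under 0.05 (against 3.47% of all genes tested). The 16 macrophage markers summed to 61.3 and 45.7 in AngII-50mg, 31.9 and 57.9 in AngII-0mg, 176 and 145 in Sham-50mg and 42.9 and 86.9 in Sham-0mg. All 16 had a negative interaction, 2 at an unadjusted p under 0.05 (against 3.47% of all genes tested). Csf1r, the receptor for macrophage colony-stimulating factor, was at -1.81 ± 0.59 and Timd4, a marker of resident macrophages, at -3.73 ± 1.59. Smooth muscle and endothelial markers leaned the same way. Of 13 smooth muscle and pericyte markers, 11 had a negative interaction, 0 at an unadjusted p under 0.05, with a median of -0.87. Of 15 endothelial markers, 13 were negative, 2 at that level, with a median of -0.59. 

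Genes that answer glucocorticoids or growth stimuli also lay lower. Of 20 genes of the glucocorticoid-responsive list, 18 had a negative interaction, 8 at an unadjusted p under 0.05 (against 3.47% of all genes tested). Only 1, Errfi1, passed (against 0.0239% of all genes in that direction), and the median of the list was -1.22. Besides Errfi1, Cdkn1a and Ddit4, Sgk1, a kinase that regulates ion transport, had 4.42 and 11.6 CPM in AngII-50mg and 24.3 and 13.6 CPM in AngII-0mg, and 16.3 and 10.5 CPM in Sham-50mg and 7.19 and 6.42 CPM in Sham-0mg (-2.21 ± 0.65). Of 30 immediate-early genes, 28 had a negative interaction, 10 at an unadjusted p under 0.05 (against 3.47% of all genes tested). At that level 1 was positive (against 3.46%), and the median of the list was -1.19. Here both arms contributed, with medians of -0.77 in AngII hearts and 0.57 in sham hearts. Atf3, a stress-induced transcription factor, had 1.06 and 0.778 CPM in AngII-50mg and 3.20 and 2.71 CPM in AngII-0mg, and 3.24 and 2.28 CPM in Sham-50mg and 1.43 and 0.987 CPM in Sham-0mg (-2.88 ± 0.65, edgeR adjusted p = 0.302). Fosl2, an AP-1 subunit, was at -1.22 ± 0.43, and Arc went the other way (2.14 ± 0.75). Egr2, a zinc finger transcription factor, had 0.172 and 0.159 CPM in AngII-50mg, 0.683 and 0.152 CPM in AngII-0mg, 1.18 and 0.838 CPM in Sham-50mg and no count in Sham-0mg.

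Of 19 genes of the IGF axis list, Igf2 included, 14 had a negative interaction, 4 at an unadjusted p under 0.05 (against 3.47% of all genes tested). Of the 4, 1 was called (against 0.0239%). Igf1, the postnatal growth factor, had 1.79 and 0.349 CPM in AngII-50mg, 2.87 and 3.02 CPM in AngII-0mg, 5.57 and 5.84 CPM in Sham-50mg and 2.87 and 2.36 CPM in Sham-0mg (-2.61 ± 0.75, edgeR adjusted p = 0.467). The binding protein genes Igfbp7 and Igfbp5 were at -1.48 ± 0.49 and -1.06 ± 0.42.

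Genes of the contractile apparatus and of energy metabolism lay on the positive side. Of 25 sarcomere genes, 23 had a positive interaction and 7 did so at an unadjusted p under 0.05 (3.46% of all genes tested), and 0 passed; the median was 0.84, from 0.21 in AngII hearts and -0.76 in sham hearts. Myom1, a protein of the M band, had 272 and 217 CPM in AngII-50mg and 148 and 87.0 CPM in AngII-0mg. It had 59.9 and 51.7 CPM in Sham-50mg and 98.7 and 102 CPM in Sham-0mg (1.91 ± 0.52, edgeR adjusted p = 0.417). Ldb3 and Actn2, proteins of the Z disc, were at 1.34 ± 0.43 and 1.70 ± 0.61, and Myot, which binds actinin, at 2.49 ± 0.71. The myosin heavy chains Myh6 and Myh7 were at 1.62 ± 0.67 and 1.53 ± 0.58. Summed CPM of 12 cardiomyocyte markers, 9086 and 10190 in AngII-50mg, 8721 and 6104 in AngII-0mg, 4875 and 4053 in Sham-50mg and 7730 and 6101 in Sham-0mg, moved with these genes, and their part in the result was not tested. Several of these markers, Myh6 and Tnnt2 among them, encode sarcomere proteins themselves, so their sum is not a separate reading. Myh6 alone made up 4052 and 4252 of that sum in AngII-50mg, 3404 and 2034 in AngII-0mg, 1029 and 677.5 in Sham-50mg and 2038 and 1407 in Sham-0mg. Of the 12 markers, 10 had a positive interaction and 2 a negative one, with 1 in each direction at an unadjusted p under 0.05, Myh6 and the transcription factor gene Tbx20 (-1.29 ± 0.42).

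All 50 nuclear-encoded genes of oxidative phosphorylation had a positive interaction, 8 at an unadjusted p under 0.05 (against 3.46% of all genes tested). Their median was 0.64, against -0.03 over all genes. Their 4 leading genes were Cox4i1 (1.48 ± 0.54), Ndufb9 (1.23 ± 0.52), Sdhb (1.06 ± 0.46) and Atp5a1 (1.01 ± 0.44), subunits of complexes IV, I, II and V. Of 37 genes of fatty acid uptake and oxidation, 34 were positive, 9 at an unadjusted p under 0.05 (against 3.46%), and the median was 0.78. Ucp3, a mitochondrial uncoupling protein, had 2.83 and 3.995 CPM in AngII-50mg, 6.32 and 10.4 CPM in AngII-0mg, 0.736 and 0.182 CPM in Sham-50mg and 7.31 and 5.26 CPM in Sham-0mg. It was lower with gastrodin in both arms (-1.29 ± 0.53 and -3.80 ± 0.61, of which the sham effect passed, edgeR adjusted p = 0.0289), and its interaction did not pass (2.51 ± 0.78). Mlycd, which removes malonyl-CoA, was at 1.13 ± 0.36 and Acsl1, which activates long-chain fatty acids, at 1.16 ± 0.39. Glycolysis genes had a median of 0.60, with 6 of 25 positive at an unadjusted p under 0.05 (against 3.46%), led by Gpi1 (1.67 ± 0.44). Gpi1 had 129 and 146 CPM in AngII-50mg, 66.1 and 53.1 CPM in AngII-0mg, 78.3 and 60.2 CPM in Sham-50mg and 106 and 84.9 CPM in Sham-0mg.

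Red cell genes had the largest median among lists of at least 8 tested members other than liver, 2.49. All 9 were positive, 7 at an unadjusted p under 0.05 (against 3.46% of all genes tested). Hba-a2, an alpha globin with a near-identical copy Hba-a1, had 425 and 797 CPM in AngII-50mg and 257 and 378 CPM in AngII-0mg. It had 56.2 and 93.1 CPM in Sham-50mg, against 445 and 343 CPM in Sham-0mg (3.34 ± 0.62, edgeR adjusted p = 0.144). Alas2, the red cell enzyme of haem synthesis, was at 2.18 ± 0.65, Hba-a1 at 2.49 ± 0.68 and Hbb-bs at 2.57 ± 0.79. Summed red cell CPM were 1597 and 3358 in AngII-50mg, 1033 and 1589 in AngII-0mg, 293 and 613 in Sham-50mg and 1751 and 1316 in Sham-0mg, so both Sham-50mg libraries were below the other 6.

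**Figure D4:**
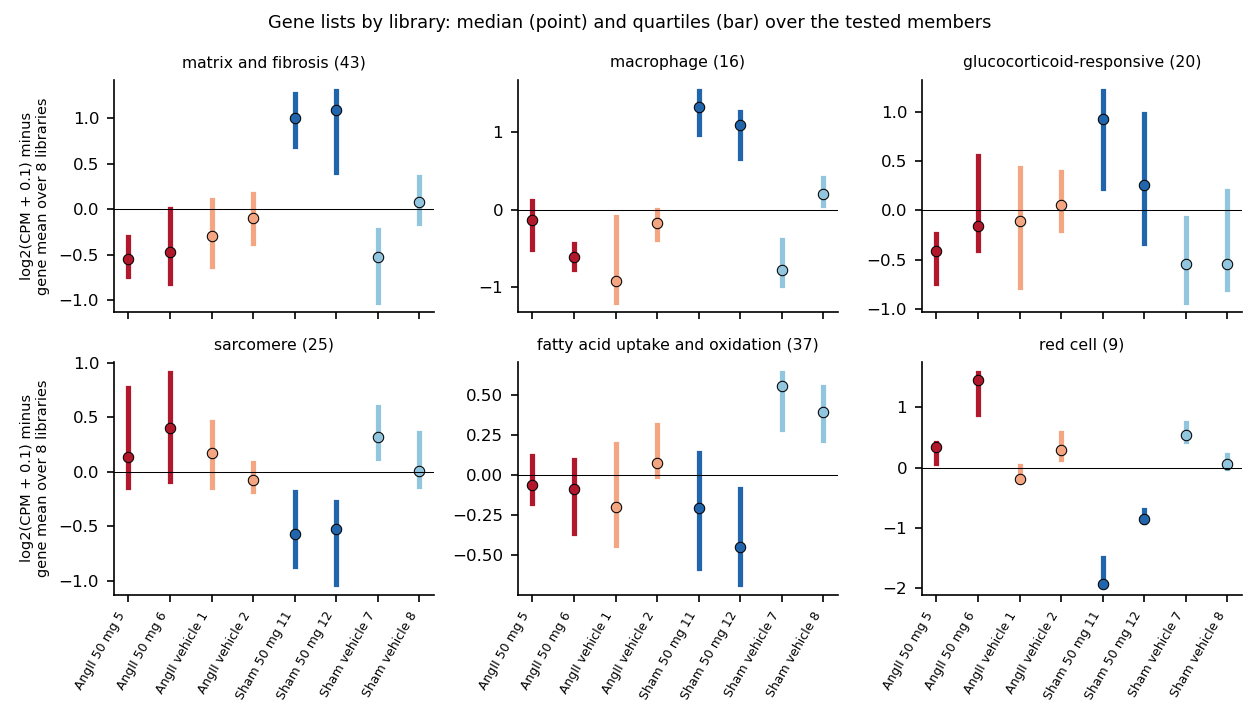
Level of 6 gene lists in each of the 8 libraries, as log2(CPM + 0.1) minus each gene's mean over the 8; points are medians and bars quartiles over the tested members, whose number is in brackets. The Sham-50mg libraries are highest for matrix and macrophage genes and lowest for sarcomere and red cell genes.

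**Figure D5:**
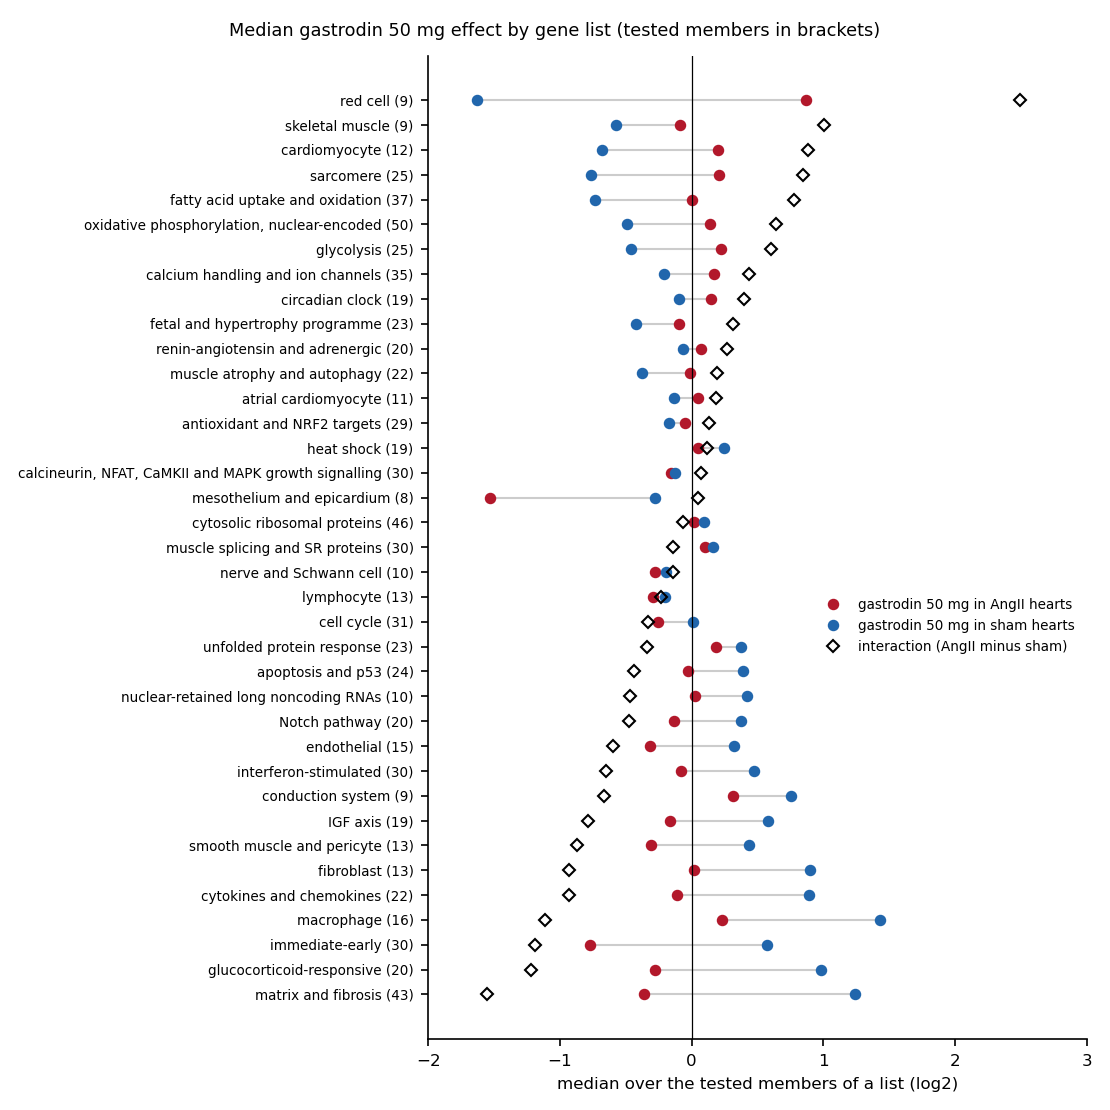
Median over the tested members (number in brackets) of the gastrodin effect in AngII hearts (red), the effect in sham hearts (blue) and the interaction (diamond), in log2, for lists with at least 8 tested members; the liver list, with a fitted median of -6.50, lies off the axis and is not drawn. Of the lists drawn, matrix genes have the lowest interaction (-1.56) and red cell genes the highest (2.49).

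Genes of the fetal and hypertrophy list leaned to the positive side without sharing a direction. Of 23 tested, 14 had a positive interaction, 5 at an unadjusted p under 0.05, and 9 a negative one, 1 at that level, with a median of 0.31 and 0 called. Fhl2, a LIM domain protein of the sarcomere, had 167.5 and 149.6 CPM in AngII-50mg, 136.0 and 137.7 CPM in AngII-0mg, 70.8 and 69.7 CPM in Sham-50mg and 215.0 and 158.8 CPM in Sham-0mg (1.62 ± 0.43). Csrp3, a LIM protein of the Z disc, was at 1.33 ± 0.48 and the actin-binding protein gene Xirp2 at 1.117 ± 0.37, while Ccn2, a matrix signalling protein, was at -1.87 ± 0.60. The natriuretic peptide genes Nppa and Nppb had interactions of 0.19 ± 0.58 and -0.60 ± 0.47 (edgeR adjusted p = 1.00 and 0.839). The sign for Nppa was negative without Sham-0mg 8 (-0.475) and without Sham-50mg 12 (-0.217). Acta1, skeletal alpha actin, had 247 and 129 CPM in AngII-50mg, 224 and 288 CPM in AngII-0mg, 166 and 289 CPM in Sham-50mg and 924 and 741 CPM in Sham-0mg (1.42 ± 0.60). Of 46 cytosolic ribosomal protein genes, 1 was positive and 1 negative at an unadjusted p under 0.05, and the median was -0.07.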

How the data were processed

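Heart RNA from 12 libraries was prepared from 1 µg of total RNA with a TruSeq kit and sequenced as paired ends of 250 bases, per the labels' protocols. The deposited matrix holds raw counts per gene, which the authors did not normalise. The authors also deposited TPM values, used here only as an alternative, as log2(TPM + 1). The submitters' processing notes name HISAT2 2.2.1, StringTie 2.1.3 and GRCm38.p6. The sources used here state neither their roles nor the counting program, its strand setting or its treatment of multiply matching reads. Depths are in the text; arm and dose are as labelled.

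The count analysis used edgeR 4.0.16 in R 4.3.3 (filterByExpr, TMM, 1 mean per group over all 12 libraries, quasi-likelihood F-test, 2-sided, Benjamini-Hochberg adjustment, threshold 0.05), with 6 residual degrees of freedom (prior 6.93) and a biological coefficient of variation of 0.476. The standard error is the log2 difference divided by the root of F. CPM use the TMM-scaled library size. On simulated counts the pipeline called 10 of 50 interactions of 4-fold, 34 of 50 of 8-fold and 48 of 50 of 32-fold, with 11 false calls. Most simulated interactions of 4-fold were thus missed. Each simulated gene had 1 mean over all 6 groups, with no other arm or gastrodin effect. The change was set in AngII-50mg alone, in genes with a mean CPM of at least 1. These figures therefore do not cover genes with zero groups or with reads split among copies. Alternatives were limma 3.58.1 (voom; trend on TPM), DESeq2 1.42.0, other filters, scalings and library sets, and sums of overlapping genes; summing near-identical copies was added after seeing the data. Annotation is GENCODE M21. Copies share at least 50% of 31-base words.

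Named genes are the called ones, the 12 leading in each direction with mean log2 CPM of 1 or more and 1 sign over 16 library choices, 10 fixed genes and up to 4 leading members per list, of which 1 gene is not reported here; Pdgfra and Tnnt2 are markers. Gm10163 was picked after its values were seen. Members and the 42 gene lists were chosen with earlier results of these data known, so lists are described by counts and medians with no test.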

Additional observations from a re-analysis of the deposited data

Results flagged for a closer look

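The gastrodin effect at 50 mg differed between AngII and sham hearts, by the test of the difference itself, in 5 genes (edgeR's quasi-likelihood test, Benjamini-Hochberg adjusted). Adjusted p was 0.00187 for Gm49394, 0.00187 for Rpl21, 0.00466 for Errfi1, 0.0186 for Igf2 and 0.0293 for Gm10036. For Gm49394 and Igf2 the count depends on how reads of 3596 shared exon bases were assigned, and for Rpl21 and Gm10036 on reads shared with copies.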

How the results depend on the processing

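No paired analysis was possible because the libraries are numbered 1 to 12 across groups, so no replicate number is shared. The number of genes with an interaction at 50 mg was 5. It was 114 with the DESeq2 Wald test, 231 with no filter, 2 when 1 CPM was required in 6 libraries, 14 with nuclear share as covariate, 3 with overlapping genes summed, 8 with the GC trend removed, 3 with near-identical copies summed (added after seeing the data), and 2 to 23 with 1 library left out each. The gastrodin effect in AngII hearts called 2 genes. It called 15 with DESeq2, 62 with no filter and 1 under that 1 CPM minimum, with the covariate or with overlaps summed. It called 0 with limma-voom (567 at an unadjusted p under 0.05) and 0 on TPM (161), and 0 to 13 with 1 library left out each. The effect in sham hearts called 25 genes. It called 281 with DESeq2, 354 with no filter, 14 under that 1 CPM minimum, 38 with the 5 mg libraries left out of the fit, 62 with the covariate, and 1 (without Sham-0mg 7) to 65 (without AngII-5mg 4) with 1 library left out each. The interaction at 5 mg called 1 gene. It called 14 with DESeq2, 93 with no filter, 2 on TPM, 0 with limma-voom (518 at an unadjusted p under 0.05), 0 under that 1 CPM minimum (212), 0 with mitochondrial, haemoglobin and ribosomal RNA genes left out (510), and 0 to 10 with 1 library left out each. With a library left out, the lone library of its group is assumed to vary like the other groups.

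Over the called genes, the leading genes of each direction and the 10 fixed genes, 754 of 836 values kept their sign and side of the threshold, 62 passed in addition, 17 lost the call and 3 changed sign. Most of the genes followed were not called in the main fit, so most kept values are of genes that stayed uncalled. All 17 lost calls were of Gm10036, Igf2, Errfi1 and Rpl21. The sign changed for Gm49394 with overlapping genes summed (-1.76), which merges it with Igf2. For Nppa it changed without Sham-0mg 8 (-0.475) and without Sham-50mg 12 (-0.217), within a leave-one-out range of -0.475 to 0.748. The cause for Nppa was not tested. Tcf4 passed with 4 of 12 libraries left out in turn (adjusted p 0.00954 to 0.303 over these fits) and with limma-voom (0.0305). Medians of the matrix list were -1.89 to -1.21 with 1 library left out each, and those of the red cell list 1.77 to 3.24, while single list members outside those genes were not followed under the alternatives.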

Other observations

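Lists not described above also leaned to 1 side without a called gene. Of 30 interferon-stimulated genes, 25 had a negative interaction, among them Gbp3 (-1.43 ± 0.53). Their median was -0.65, and 5 were negative at an unadjusted p under 0.05 (against 3.47% of all genes tested). Of 22 cytokine and chemokine genes, 18 were negative (median -0.93), and Ccl8, a chemokine for monocytes, was listed at 0.0573 and 0 CPM in AngII-50mg, 0.205 and 0.240 CPM in AngII-0mg, 0.883 and 0.754 CPM in Sham-50mg and 0.0771 and 0.4 CPM in Sham-0mg. Of 35 calcium handling and ion channel genes, 24 were positive and 11 negative (median 0.43). At an unadjusted p under 0.05, 3 were positive (against 3.46%) and 1 negative (against 3.47%). The negative one, the potassium channel gene Kcna5, led the list (-1.68 ± 0.59). It had 4.58 and 5.31 CPM in AngII-50mg, 6.35 and 5.53 CPM in AngII-0mg, 5.50 and 6.86 CPM in Sham-50mg and 1.99 and 2.64 CPM in Sham-0mg. The L-type calcium channel gene Cacna1c had 64.8 and 89.0 CPM in AngII-50mg, 48.7 and 59.2 CPM in AngII-0mg, 4.08 and 6.26 CPM in Sham-50mg and 16.3 and 8.44 CPM in Sham-0mg (1.77 ± 0.63).

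Of 19 heat shock genes tested, 10 had a positive interaction and 9 a negative one (median 0.11). At an unadjusted p under 0.05, 1 was positive (against 3.46%) and 4 negative (against 3.47%). Summed CPM of the list were 730 and 826 in Sham-50mg, against 994 and 848 in Sham-0mg. Within this divided list, Hspa1a and Hspa1b, near-identical copies of each other, were highest in Sham-50mg among the 4 groups. Hspa1a had 1.10 and 0.898 CPM in AngII-50mg, 0.985 and 0.974 CPM in AngII-0mg, 3.04 and 5.56 CPM in Sham-50mg and 0.501 and 0.462 CPM in Sham-0mg (-3.13 ± 0.80, edgeR adjusted p = 0.364). The secretoglobin gene Scgb1a1, a marker of airway epithelium, had 2.60 and 1.40 CPM in AngII-50mg, 8.81 and 7.01 CPM in AngII-0mg, 0 in both Sham-50mg libraries and 0.617 and 0.09999 CPM in Sham-0mg. Another secretoglobin gene, Scgb3a1, had 0.515 and 0.461 CPM in AngII-50mg, 2.55 and 2.02 CPM in AngII-0mg, 0.147 and 0.0559 CPM in Sham-50mg and 0 in both Sham-0mg libraries. The fitted interaction was positive for Scgb1a1 and negative for Scgb3a1, and neither passed. Of 7 lung epithelium genes tested, 5 had a negative interaction and 2 a positive one. The alveolar marker Sftpc was at or near 0 in all 8 libraries.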
